A study of Mus musculus with 6 samples.

Results

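The stress genes described here are 10 genes of the unfolded protein response and of the pathway of the transcription factor ATF4, read in cultured fibroadipogenic progenitors (FAPs), the mesenchymal cells of skeletal muscle that can become fibroblasts or adipocytes. They were chosen by gene symbol as known members of these pathways: Atf4, Ddit3, Trib3, Asns, Chac1, Hspa5, Hsp90b1, Xbp1, Herpud1 and Dnajb9. All 10 were among the 16894 genes listed, and all 10 passed the filter that left 14776 genes for testing. FAPs were sorted with magnetic beads (CD45-/CD31-/α7-integrin-/SCA-1+) from the quadriceps, gastrocnemius and tibialis anterior of male and female C57BL/6 mice aged 3 to 6 months, without genetic modification. Senescent FAPs had received 20 μM etoposide, an inhibitor of topoisomerase that breaks DNA, for 48 h and then a further 5 days in normal medium. Control FAPs were non-senescent. Both groups were grown in 20% fetal bovine serum with 10 ng/mL bFGF at 3% oxygen. RNA of 3 libraries per group was sequenced after poly(A) selection, and the comparison asks how the transcriptome of FAPs differs once the cells have become senescent. Whether the control cultures received a vehicle, how long they were grown, and whether the 3 cultures of a group came from separate animals are not given in the sources used here, so p-values measure only the spread between these libraries. Effects of the drug and of the senescent state cannot be told apart in this design.

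The endoplasmic reticulum (ER) folds secreted and membrane proteins, and a surplus of unfolded protein there activates 3 sensors. IRE1 splices the RNA of Xbp1 into the form that encodes an active transcription factor, ATF6 is cut by Golgi proteases into another, and PERK phosphorylates the translation factor eIF2alpha, which slows translation in general while ATF4 is translated more. ATF4 is also engaged by kinases that sense amino acid shortage, viral RNA and heme shortage, and its targets include amino acid synthesis and import, tRNA charging and, through CHOP (the product of Ddit3), cell death. Fibroblast-like cells secrete large amounts of collagen and depend on the folding capacity of the ER.

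Of the 10 members, 6 carried a promoter element named for these pathways, and 4 (Atf4, Ddit3, Xbp1 and Dnajb9) held none of those searched. The promoters of Hspa5, Hsp90b1, Herpud1, Asns and Chac1 are shown because they hold the elements of the chaperone arm and of the ATF4 arm. Promoter sequences came from RefSeq (GRCm38.p6), which held an entry for 10 of the 10 members, and run from 250 bases before to 50 bases after the annotated start. The ER stress element (ERSE) was searched as CCAAT and CCACG 9 bases apart, and ERSE-II as ATTGG and CCACG with 1 base between them. The unfolded protein response element (UPRE) was searched as TGACGTGG, and the C/EBP-ATF element as TGATGNAA, all on both strands. ERSE was found in Hspa5 and Hsp90b1, and in 39 of 32851 mouse promoters of this length (0.119%). Hspa5 held 1 match, 65 to 47 bases before the start, and Hsp90b1 held 2, at 212 to 194 bases before it and, on the opposite strand, at 107 to 89. ERSE-II was found in Herpud1, 52 to 42 bases before the start, and in 12 promoters in all (0.0365%). The C/EBP-ATF element was found in Asns, Chac1, Trib3 and Herpud1, against 1304 promoters (3.97%). In Asns it lay 23 to 16 bases before the start, in Chac1 193 to 186 bases before it on the opposite strand, in Herpud1 112 to 105 bases before it on the opposite strand, and in Trib3 14 to 21 bases after it on the opposite strand. UPRE was found in 0 of the 10 members and in 222 promoters (0.676%). No matches to different elements overlapped. These positions count from the RefSeq start, which for Hspa5 lies 120 bases inside the gene as GENCODE places it, so its match falls within the GENCODE gene. For Hsp90b1, Asns and Chac1 the RefSeq start lies 65, 45 and 13 bases inside the GENCODE gene, so the Asns match also falls within it. For Dnajb9 the RefSeq start lies 258 bases inside. The stretch searched for Dnajb9 therefore held no sequence before the GENCODE start. The elements were chosen because they are known for these pathways. Their matches in members, set beside the share of all promoters, are therefore no test. A match is a stretch of letters and says nothing of binding in these cells. The 5 sequences are given 5′ to 3′ in the direction of transcription, with the matches in capitals, for Hspa5 (chr2:34771840-34772139, plus strand), Hsp90b1 (chr10:86705395-86705694, minus strand), Herpud1 (chr8:94386179-94386478, plus strand), Asns (chr6:7693160-7693459, minus strand) and Chac1 (chr2:119350992-119351291, plus strand).
Hspa5: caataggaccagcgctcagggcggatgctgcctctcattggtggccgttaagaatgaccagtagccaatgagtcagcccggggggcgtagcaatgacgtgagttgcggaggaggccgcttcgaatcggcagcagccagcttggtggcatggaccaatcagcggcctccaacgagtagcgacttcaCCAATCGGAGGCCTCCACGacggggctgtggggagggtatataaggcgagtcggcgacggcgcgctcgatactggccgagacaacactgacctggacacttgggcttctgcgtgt
Hsp90b1: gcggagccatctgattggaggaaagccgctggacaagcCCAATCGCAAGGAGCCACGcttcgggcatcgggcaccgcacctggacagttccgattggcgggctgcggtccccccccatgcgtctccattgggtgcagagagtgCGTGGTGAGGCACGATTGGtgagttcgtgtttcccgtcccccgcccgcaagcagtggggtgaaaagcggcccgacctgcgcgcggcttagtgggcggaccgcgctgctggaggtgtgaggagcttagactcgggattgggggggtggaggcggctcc
Herpud1: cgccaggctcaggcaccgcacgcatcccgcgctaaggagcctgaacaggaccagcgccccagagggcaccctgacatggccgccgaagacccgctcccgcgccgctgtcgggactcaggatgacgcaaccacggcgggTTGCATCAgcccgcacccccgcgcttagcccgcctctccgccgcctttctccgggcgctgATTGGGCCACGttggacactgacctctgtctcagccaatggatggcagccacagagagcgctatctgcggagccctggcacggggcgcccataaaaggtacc
Asns: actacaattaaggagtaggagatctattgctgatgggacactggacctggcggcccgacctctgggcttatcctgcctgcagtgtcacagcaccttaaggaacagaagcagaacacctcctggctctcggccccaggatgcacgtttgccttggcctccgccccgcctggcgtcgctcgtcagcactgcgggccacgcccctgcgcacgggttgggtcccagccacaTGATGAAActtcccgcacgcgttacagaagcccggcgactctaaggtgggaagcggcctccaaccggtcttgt
Chac1: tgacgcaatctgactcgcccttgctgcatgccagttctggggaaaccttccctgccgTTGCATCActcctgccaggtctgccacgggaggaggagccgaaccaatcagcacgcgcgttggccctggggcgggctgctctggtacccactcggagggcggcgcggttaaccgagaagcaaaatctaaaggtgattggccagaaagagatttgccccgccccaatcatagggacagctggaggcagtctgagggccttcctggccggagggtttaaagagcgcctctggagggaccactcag

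Values are read counts relative to library size (CPM), scaled between libraries by edgeR before deposition, and fold changes are differences of mean log2(CPM + 0.5) between senescent and control FAPs, with a standard error (SE) and a p-value from limma, adjusted over all genes tested by the Benjamini-Hochberg method. Of the 10 members, 8 fell in senescent FAPs at an adjusted p under 0.05 in limma. Among all genes tested 24.3% fell and 21.8% rose by the same rule, 3592 and 3218 genes. Dividing by library totals alone, in place of the deposited scaling, gave 1929 genes that fell and 4992 that rose, and moved the median log2 fold change of all genes from -0.03 to 0.17. Of the members, 0 rose in limma, and the number at an unadjusted p under 0.05 was also 0, as was the number called by edgeR and by DESeq2. The median log2 fold change over the 10 members was -0.99, against -0.03 over all genes tested. The 2 members that did not pass the test were Ddit3 and Dnajb9. Asns, Chac1, Hspa5 and Herpud1 passed the stricter rule of an unadjusted p under 0.01 with a log2 fold change beyond 1, which 3.9% of all genes passed in the lower direction. Asns and Chac1 passed it under all 15 alternatives, Herpud1 under 13 and Hspa5, which lies at the limit, under 6. Hspa5 missed it with a pseudocount of 1, median-of-ratios factors (-0.98), library totals alone (-0.79), edgeR (-0.97) or DESeq2 (-0.96) and without control replicate 1 or 3 or senescent replicate 1 or 2, and Herpud1 missed it with library totals alone (-0.90) or without control replicate 1 (-0.86). The 3 senescent libraries lay wholly below the 3 control libraries in 7 members and wholly above in 0, where 30.9% of all genes lay wholly below. In bulk RNA, fewer cells with a transcript and less of it per cell cannot be told apart.

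**Figure D1:**
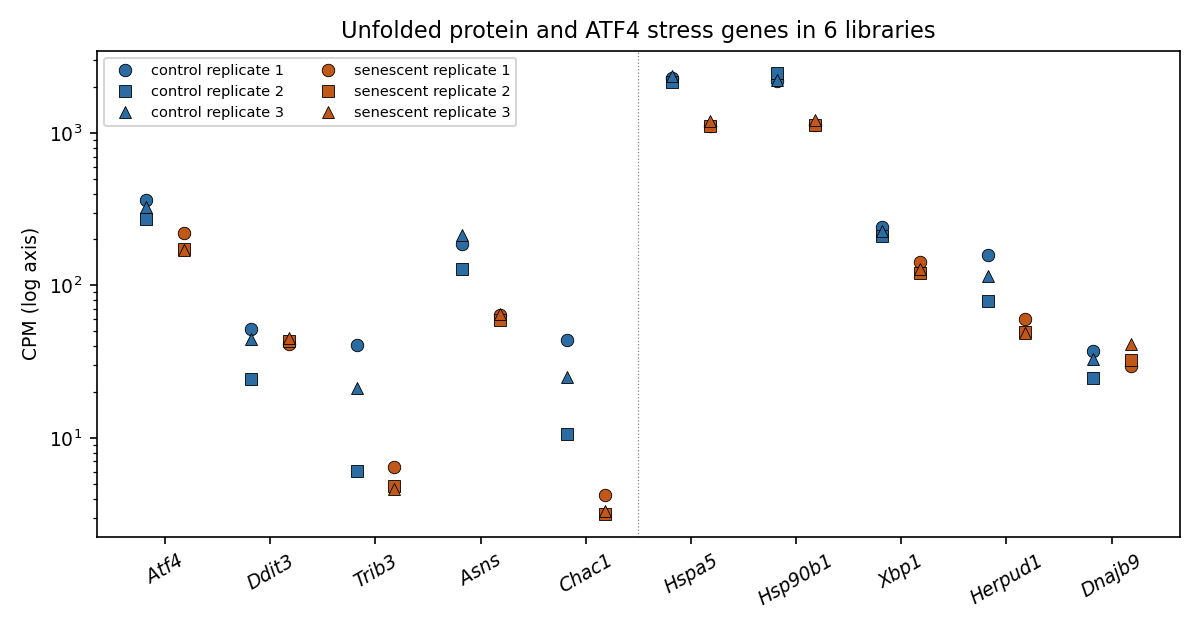
CPM (log axis) of the 10 stress genes in each of 6 libraries, control FAPs in blue and senescent FAPs in orange, with a marker shape for each replicate number; the dotted line separates the ATF4 arm (left) from the other members. The senescent points sit below all control points in 7 genes, and the groups overlap in Ddit3, Trib3 and Dnajb9.

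Atf4 encodes the transcription factor at the centre of the pathway, whose activity is set largely by translation of its RNA, which was not measured here. The gene lies at chr15:80255184-80257541 on the plus strand (GRCm38). In the order of replicates 1, 2 and 3, here and for the genes that follow, its CPM was 363, 271 and 326 in control FAPs and 220, 172 and 172 in senescent FAPs. All senescent libraries were below all control libraries, and control replicate 2 was the lowest of its group. Atf4 RNA fell from 320 ± 46.4 to 188 ± 27.4 CPM (mean ± SD, n = 3 each). The log2 fold change was -0.77 (SE 0.14, adjusted p = 0.00368, limma with Benjamini-Hochberg adjustment).

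Asns, the enzyme that makes asparagine and a classical ATF4 target, lies at chr6:7675169-7693254 on the minus strand. Its CPM was 188, 128 and 214 in control FAPs and 63.8, 59.6 and 65.0 in senescent FAPs. All senescent libraries were below all control libraries, and the senescent values lay close together. Asns fell to 35.5% of its control mean, a log2 fold change of -1.45 (SE 0.17, limma with Benjamini-Hochberg adjusted p = 7.13e-04).

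Chac1, which degrades glutathione and is induced through ATF4 and CHOP, had the largest fall among the members. It lies at chr2:119351229-119354381 on the plus strand. Its CPM was 43.5, 10.6 and 25.2 in control FAPs and 4.25, 3.15 and 3.31 in senescent FAPs. The groups did not overlap, although the control libraries differed among themselves by 4.10 times between the highest and the lowest. Chac1 fell from 26.4 ± 16.5 to 3.57 ± 0.596 CPM (n = 3 each), a log2 fold change of -2.53 (SE 0.44, limma with Benjamini-Hochberg adjusted p = 0.00318). The 3 tested genes whose profile over the 6 libraries was nearest to that of Chac1, by root mean square difference of centred log2(CPM + 0.5), were Aldh1l2 (0.27), Megf6 (0.32) and Col1a1 (0.32). Aldh1l2, a mitochondrial enzyme of folate metabolism, was at 347, 150 and 311 CPM in control FAPs and 43.5, 32.0 and 35.2 in senescent FAPs. Col1a1, a chain of type I collagen, was at 21130, 9978 and 15527 CPM in control FAPs and 4073, 2923 and 2353 in senescent FAPs. In both of these genes control replicate 2 was the lowest control, as in Chac1. They were chosen for a profile like that of Chac1 over the same libraries, so this likeness is no separate evidence.

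Trib3, a pseudokinase that ATF4 and CHOP induce and that restrains ATF4 in turn, lies at chr2:152337422-152344032 on the minus strand. Its CPM was 40.4, 6.08 and 21.4 in control FAPs and 6.43, 4.85 and 4.59 in senescent FAPs. Control replicate 2 lay inside the senescent range, so the groups overlapped, and the control values spread over 6.64 times. The log2 fold change was -1.65 (SE 0.58, adjusted p = 0.0480, limma with Benjamini-Hochberg adjustment), close to the threshold. Leaving out control replicate 2 gave -2.38 (adjusted p = 3.69e-04). The call was lost without any 1 of the other 5 libraries, at -1.79 to -1.06 and adjusted p up to 0.134 in limma. Division by library totals alone also ended the call (-1.45, adjusted p = 0.0683 in limma).

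Ddit3 encodes CHOP, the transcription factor that links prolonged stress to cell death. It lies at chr10:127290829-127293753 on the plus strand. Its CPM was 52.1, 24.5 and 44.5 in control FAPs and 41.2, 43.4 and 45.0 in senescent FAPs. The senescent values lay within the control range, and the spread in control FAPs (SD 14.3) was wider than in senescent FAPs (SD 1.89). The log2 fold change was 0.17 with a 95% interval of -0.41 to 0.74 (adjusted p = 0.609, limma with Benjamini-Hochberg adjustment), which leaves room for a moderate change in either direction. Without control replicate 2 the estimate turned to -0.15. Relative to Atf4 in the same library, the log2 ratio of Ddit3 was -3.03 ± 0.36 in control and -2.10 ± 0.26 in senescent FAPs (SD, n = 3 each). The difference of 0.93 gave p = 0.1 in a two-sided exact permutation test, the smallest that 3 against 3 libraries allow, and 0.15 after adjustment over the 3 ratios compared.

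Hspa5 encodes BiP (GRP78), the main Hsp70 chaperone of the ER lumen, which also holds the stress sensors inactive. It lies at chr2:34771970-34777547 on the plus strand. Its CPM was 2300, 2169 and 2370 in control FAPs and 1116, 1110 and 1192 in senescent FAPs. The groups were far apart, and the 3 libraries of each group lay close together. Hspa5 fell from 2279 ± 102 to 1139 ± 45.4 CPM (n = 3 each), a log2 fold change of -1.0 (SE 0.10, limma with Benjamini-Hochberg adjusted p = 4.45e-04).

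Hsp90b1 encodes GRP94, the Hsp90 of the ER, which folds integrins and other client proteins. Its CPM was 2183, 2476 and 2211 in control FAPs and 1133, 1120 and 1219 in senescent FAPs. Control replicate 2 was the highest control here, unlike in every other member, and all senescent libraries were below all control libraries. Hsp90b1 fell to 50.5% of its control mean, a log2 fold change of -0.98 (SE 0.11, limma with Benjamini-Hochberg adjusted p = 5.86e-04). The log2 ratio of Hsp90b1 to Hspa5 was 0.0052 ± 0.16 in control and 0.022 ± 0.011 in senescent FAPs (SD, n = 3 each, p = 1, exact permutation test). The gene, at chr10:86690209-86705509 on the minus strand, overlaps 3 other annotated genes that are also in the table, 1 of them on the opposite strand. Whether reads were counted by strand is not given in the sources used here, so how reads were divided among them is uncertain.

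Xbp1 encodes the transcription factor that IRE1 activates by splicing its RNA. The table gives 1 value per gene, so the spliced and unspliced forms were not separated. It lies at chr11:5520659-5525893 on the plus strand. Its CPM was 241, 211 and 226 in control FAPs and 142, 120 and 128 in senescent FAPs. No senescent library reached the lowest control value, and the spread within each group was small against the gap. The log2 fold change was -0.80 (SE 0.089, adjusted p = 5.62e-04, limma with Benjamini-Hochberg adjustment), which leaves 57.5% of the control mean.

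Herpud1 encodes an ER membrane protein that organises the disposal of misfolded proteins (ER-associated degradation). It lies at chr8:94386438-94395377 on the plus strand, with the gene Gm15890 annotated antisense to it. Its CPM was 159, 79.6 and 115 in control FAPs and 59.8, 49.3 and 48.5 in senescent FAPs. Control replicate 2 had the lowest control value and was still above every senescent library. Herpud1 fell to 44.6% of its control mean, a log2 fold change of -1.11 (SE 0.23, limma with Benjamini-Hochberg adjusted p = 0.00639).

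Dnajb9 encodes ERdj4, a co-chaperone that brings BiP to IRE1. It lies at chr12:44205559-44210326 on the minus strand, with Mir5627 annotated on the opposite strand. Its CPM was 37.3, 24.5 and 33.0 in control FAPs and 29.8, 32.2 and 41.1 in senescent FAPs. The ranges of the groups overlapped between 29.8 and 37.3 CPM. The log2 fold change was 0.13 with a 95% interval of -0.28 to 0.54 (adjusted p = 0.585, limma with Benjamini-Hochberg adjustment). Relative to Xbp1, the factor that induces it, the log2 ratio was -2.84 ± 0.21 in control and -1.91 ± 0.30 in senescent FAPs (SD, n = 3 each). The difference of 0.92 gave p = 0.1 (0.15 adjusted over the 3 ratios) in the exact permutation test, again the smallest it allows.

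**Figure D2:**
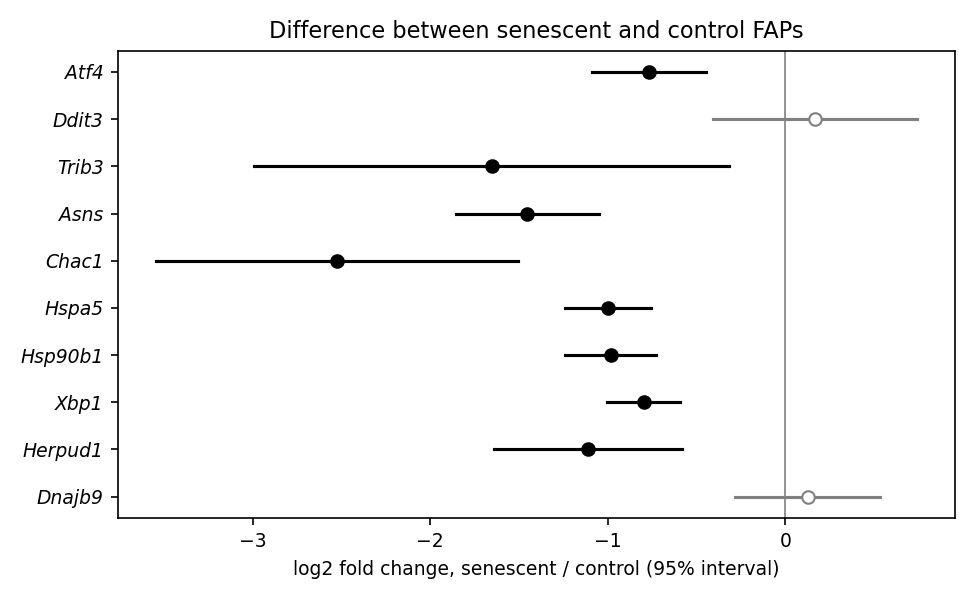
Log2 fold change of each stress gene between senescent and control FAPs (horizontal axis) with its 95% interval from limma; filled points passed an adjusted p under 0.05 and open points did not. The 8 filled points lie between -2.53 for Chac1 and -0.77 for Atf4, and the intervals of Ddit3 and Dnajb9 span 0.

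Libraries with the same replicate number tended to deviate together, so differences were also read within each number. The limma and permutation p-values given above for the members did not use this pairing. Between senescent and control replicate 1, 10 of the 10 members were lower in the senescent library, and within replicates 2 and 3 this held for 8 of 10. Ddit3 differed by -0.33, 0.82 and 0.02 on the log2 scale within replicates 1, 2 and 3, and Dnajb9 by -0.32, 0.38 and 0.31. The size of the fall of Trib3 depended on the number, at -2.56, -0.30 and -2.10. For Chac1 it was -3.21, -1.61 and -2.75, whereas for Hspa5 it was -1.04, -0.97 and -0.99.

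In the ATF4 arm (Atf4, Ddit3, Trib3, Asns and Chac1) the control libraries differed more among themselves than the senescent libraries in every gene except Atf4, where the coefficient of variation was 14.5% and 14.6%. Over these 5 genes the coefficient of variation of CPM was 14.5% to 76.0% in control FAPs, against 4.37% to 18.8% in senescent FAPs. Over the other 5 members it was 4.47% to 33.9% and 3.98% to 17.4%. The values of 3 libraries give only a rough estimate of spread, and the difference in spread was not tested. Control replicate 2 had the lowest control value in 9 of the 10 members, including all 5 of the ATF4 arm, while it was the lowest control in 38.9% of all genes tested. It was also the lowest control in 19 of 19 genes of amino acid synthesis and transport, in 10 of 12 ATF4 partners and stress effectors and in 8 of 12 cytosolic tRNA synthetases. Among ER chaperones and folding enzymes, by contrast, this held for 6 of 19 genes, and among genes of ER translocation for 4 of 19. This pattern was examined after the values were seen. Division by library totals alone left it at 9 of 10 members, 18 of 19 amino acid genes and 36.0% of all genes. Control replicate 2 had 55939343 reads on genes, between the 48865531 and 59912520 of the other controls. Of the 9 FAP markers, 7 had their lowest control value in control replicate 2, such as Pdgfra (126 CPM against 238 and 212 in control replicates 1 and 3), Cd34 (19.1 against 26.9 and 21.6) and Pi16 (2.93 against 3.30 and 4.38). The exceptions were Dcn (55.2 against 32.8 and 98.9) and Lum (0.48 against 0.18 and 0.95). The part of these differences in the results was not tested.

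**Figure D3:**
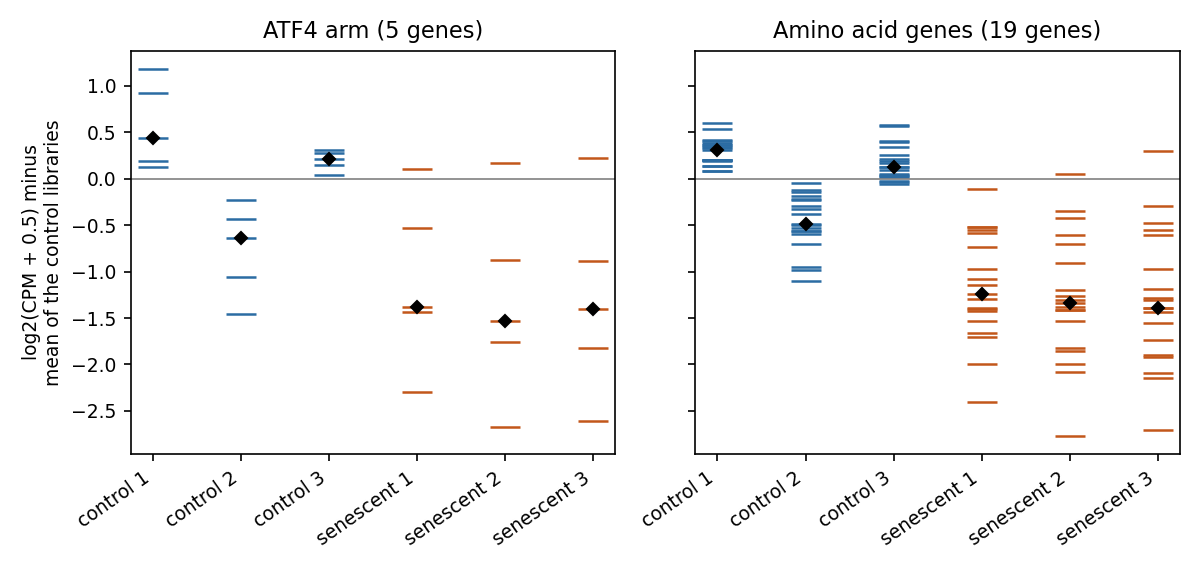
Log2(CPM + 0.5) of each gene minus its mean over the control libraries (vertical axis), by library, for the 5 genes of the ATF4 arm (left) and 19 genes of amino acid synthesis and transport (right); lines are genes and diamonds are medians. Control replicate 2 is the lowest control in 5 of 5 and 19 of 19 genes, and its median lies between those of the other controls and those of the senescent libraries.

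Levels were compared between members as CPM per kilobase of merged exons (GENCODE M21 lengths). In control FAPs Hsp90b1 (568 CPM per kilobase) and Hspa5 (539) stood far above the rest, and their libraries overlapped. Atf4 (136) came next, then Xbp1 (69.5), Asns (64.6), Herpud1 (50.5), Ddit3 (23.6), Chac1 (16.2), Dnajb9 (12.4) and Trib3 (10.6). Xbp1 overlapped with Asns, and Asns with Herpud1. Each neighbouring pair from Ddit3 to Trib3 also overlapped, so the ranges did not separate these last 4 members. Within every single control library, however, Ddit3 was above Chac1, Dnajb9 and Trib3, and Chac1 was above Trib3. The place of Dnajb9 differed between the control libraries. In senescent FAPs the order began with Hsp90b1 (287), Hspa5 (269), Atf4 (79.7) and Xbp1 (40.0). Ddit3 (25.2) came next, above Asns (22.9) in every senescent library, whereas in control FAPs every Ddit3 value was below every Asns value. Herpud1 (22.5) overlapped with Asns. Dnajb9 (13.5) was apart from Trib3 (2.49) and Chac1 (2.18), which closed the order and overlapped.

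The other genes of the pathway were read in 11 lists written from general knowledge, with no member repeated, and 157 of their genes were tested. In all, 83 fell (52.9%), 13 rose (8.28%) and 61 did not pass the test, where 24.3% of all genes tested fell and 21.8% rose. Those named are the 3 genes of each list with the smallest p, together with further genes picked after their values were seen. Every adjusted p in the next paragraphs is from limma with Benjamini-Hochberg adjustment.

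Among the ER stress sensors and their proteases, 3 of 9 genes fell (33.3%) and 1 rose (median log2 fold change -0.08). Division by library totals alone gave 2 that fell and 3 that rose. Eif2ak3, which encodes PERK, fell by 0.46 (adjusted p = 0.00525), Mbtps1, a protease that cuts ATF6, fell by 0.28 (adjusted p = 0.0125), and Creb3l1, a membrane-bound factor that drives collagen genes, fell by 0.88 (adjusted p = 0.00727), all on the log2 scale. Ern1, which encodes IRE1, rose by 0.31 (adjusted p = 0.0295), a call that was lost without control replicate 2 or 3 or senescent replicate 2 or 3. Atf6 was at -0.23 (adjusted p = 0.0982).

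Among the other eIF2alpha kinases, the phosphatase subunits and eIF2B, 5 of 11 genes fell (45.5%) and 1 rose (median -0.24). The rise was that of Eif2ak2, the kinase PKR that senses double-stranded RNA and is induced by interferon, from 30.9 ± 3.54 to 74.3 ± 9.65 CPM (n = 3 each, log2 fold change 1.25, adjusted p = 3.77e-04). Eif2ak4 (GCN2, the sensor of amino acid shortage) had a log2 fold change of -0.51 (adjusted p = 0.00228), and Ppp1r15b (the constitutive phosphatase subunit) of -0.69 (adjusted p = 0.00117). Eif2s1, Eif2b1 and Eif2b3 were the others that fell. Ppp1r15a (GADD34), the phosphatase subunit that stress induces, was at 118, 77.9 and 107 CPM in control FAPs and 96.2, 94.9 and 86.9 in senescent FAPs, which overlap. Without control replicate 2 it was called lower (-0.28, adjusted p = 0.0256). Division by library totals alone left 2 genes of this list that fell.

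The genes of the folding and entry machinery of the ER mostly fell, as Hspa5 and Hsp90b1 did. Of the ER chaperones and folding enzymes, 14 of 19 fell (73.7%) and 5 did not pass the test (median -0.58). Pdia6, a disulfide isomerase, was at 846, 842 and 845 CPM in control FAPs and 383, 342 and 333 in senescent FAPs (log2 fold change -1.26, adjusted p = 1.32e-04). The BiP-related Hyou1 (-0.93, adjusted p = 2.36e-04) and the isomerase Pdia4 (-0.83, adjusted p = 2.52e-04) followed. Of the genes of ER translocation and COPII transport, 15 of 19 fell (78.9%) and 4 did not pass (median -0.52). With the replicate block, with DESeq2 or without senescent replicate 1, 1 gene of this list rose, and library totals alone gave 11 that fell and 2 that rose. Sec61a1, the pore of the translocon, was at 715 ± 38.9 CPM in control and 348 ± 5.44 in senescent FAPs (n = 3 each, log2 fold change -1.04, adjusted p = 1.83e-04). Sec24d, a coat protein needed for collagen export, changed by -0.81 (adjusted p = 7.80e-04), and Sec61g by -0.62 (adjusted p = 7.93e-04).

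In ER-associated degradation, the list to which Herpud1 belongs by function, 5 of 22 genes fell (22.7%), 3 rose (13.6%) and 14 did not pass (median -0.08), so the share that fell was near the 24.3% of all genes. Those that fell were Syvn1 (-0.71, adjusted p = 0.00272), the ubiquitin ligase of this route, Edem1 (-0.56, adjusted p = 0.00102), Vimp (-0.35, adjusted p = 0.00439), Sel1l and Derl1. Those that rose were Erlec1, Herpud2 and Rnf5. Division by library totals alone gave 2 that fell and 6 that rose, and ended the call of Vimp and that of Mbtps1. The number that fell was 3 without control replicate 1 or 3 or senescent replicate 1 or 2, and DESeq2 gave 5 that rose.

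**Figure D4:**
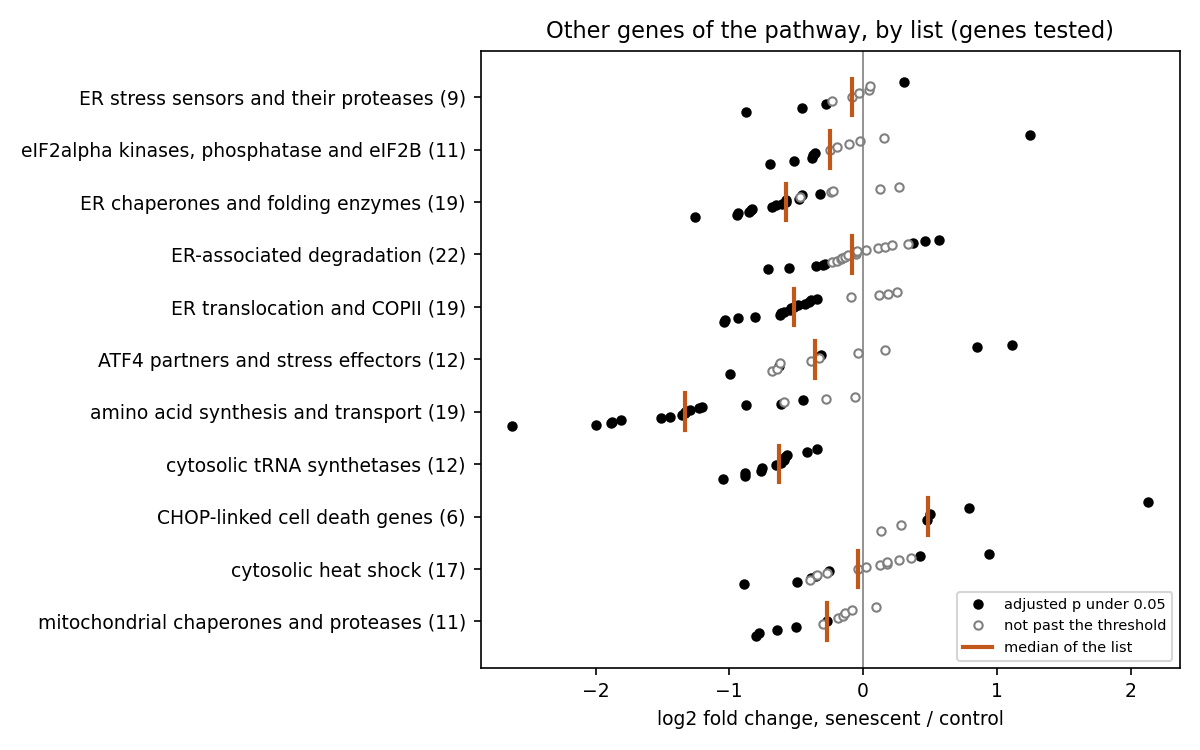
Log2 fold change between senescent and control FAPs (horizontal axis) of the genes of 11 pathway lists, with the number tested in parentheses; filled points passed an adjusted p under 0.05, open points did not, and orange bars are medians. The median is lowest for amino acid synthesis and transport (-1.33) and highest for the CHOP-linked cell death genes (0.49).

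Amino acid supply, a main target of ATF4, had the lowest median of the 11 lists. Of 19 genes of amino acid synthesis and transport, 16 fell (84.2%) and 3 did not pass (median -1.33). Psat1, an enzyme of serine synthesis, was at 278, 202 and 288 CPM in control FAPs and 63.3, 59.4 and 66.3 in senescent FAPs (log2 fold change -2.0, adjusted p = 1.36e-04). The mitochondrial folate enzyme Mthfd2 changed by -1.81 (adjusted p = 2.05e-04) and the arginine and lysine importer Slc7a1 by -1.23 (adjusted p = 2.32e-04). Slc7a5, the importer of large neutral amino acids, had the largest fall of the list, from 231, 126 and 223 CPM to 34.9, 27.0 and 28.3 (-2.62, adjusted p = 2.71e-04). Slc7a11, the cystine importer, was an exception at 11.3, 6.35 and 13.2 CPM in control FAPs and 6.73, 10.2 and 12.2 in senescent FAPs, which overlap. All 12 cytosolic tRNA synthetases tested fell (median -0.63), with Gars at -0.88 (adjusted p = 3.07e-04), Iars at -0.75 (adjusted p = 3.59e-04) and Tars at -0.88 (adjusted p = 4.51e-04).

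Of the ATF4 partners and stress effectors, 3 of 12 genes fell (25.0%), 2 rose (16.7%) and 7 did not pass the test (median -0.36), shares near the 24.3% and 21.8% of all genes. Eif4ebp1, a repressor of translation, fell by 1.00 on the log2 scale (adjusted p = 0.00413). Cebpg (-0.32, adjusted p = 0.0496) and Fgf21 (-0.63, adjusted p = 0.0342) were the others that fell. Cebpg lay close to the threshold, and Fgf21 was low, at 1.57 CPM in control and 0.82 in senescent FAPs (means). Nupr1, a stress-induced nuclear protein, rose from 81.6 ± 14.1 to 147 ± 16.0 CPM (n = 3 each, log2 fold change 0.85, adjusted p = 0.00223). Gdf15, a secreted stress cytokine, rose from 1.55 ± 0.341 to 3.92 ± 0.578 CPM (n = 3 each, log2 fold change 1.11, adjusted p = 0.00263). With the replicate number as a block, 5 genes of this list fell, among them Atf5 (-0.68, adjusted p = 0.0573 without and 0.00613 with the block). The count of genes that fell was 5 in DESeq2, 8 without control replicate 2, and 1 without any 1 of the senescent libraries, with library totals alone or with a filter of 2 CPM.

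Among the CHOP-linked cell death genes the calls went the other way. Of 6 genes, 4 rose (66.7%), where 21.8% of all genes rose, and 2 did not pass (median 0.49). Those 2 were Bbc3 (log2 fold change 0.13) and Bcl2 (0.28). Bcl2, which is counted in the median, protects against cell death, unlike the others of the list. Ddit3 itself was not shown to differ. Pmaip1 (NOXA), at 26.9, 99.7 and 45.4 CPM in control FAPs and 161, 225 and 290 in senescent FAPs, did not overlap between groups (log2 fold change 2.13, adjusted p = 0.00626). Casp12 (0.79, adjusted p = 9.20e-04), a caspase of the ER, Tnfrsf10b (0.48, adjusted p = 0.0174), a death receptor, and Bcl2l11 were the others. Pmaip1, Tnfrsf10b and Bbc3 are also known targets of p53, and of these Bbc3 did not pass the test. Without senescent replicate 2 the count was 2, and Tnfrsf10b lost its call without senescent replicate 2 or 3.

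Chaperones outside the ER fell in smaller shares than the ER chaperones and folding enzymes (73.7%). Of 17 cytosolic heat shock genes 2 rose (11.8%) and 5 fell (29.4%), with a median of -0.04. Among all genes tested 21.8% rose and 24.3% fell. Cryab, a small heat shock protein, rose by 0.94 on the log2 scale (adjusted p = 4.21e-04), as did Dnajb1 by 0.43 (adjusted p = 0.00216), while Fkbp4, an Hsp90 co-chaperone, fell by 0.89 (adjusted p = 4.45e-04), with Hsf1, Hsp90ab1, Stip1 and Ahsa1. Division by library totals alone gave 6 that rose and 1 that fell. The number that fell was 2 without senescent replicate 2, and 3 without control replicate 3 or senescent replicate 3. Of 11 mitochondrial chaperones and proteases 5 fell (45.5%) and 6 did not pass (median -0.27), the 5 being Hspd1 (-0.78, adjusted p = 0.00302), Hspa9 (-0.64, adjusted p = 0.00251), Hspe1 (-0.50, adjusted p = 0.00218), Lonp1 and Htra2.

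The libraries held 41412179 to 59912520 reads on genes, and single members rested on 147 (Chac1) to 132007 (Hspa5) reads in a library. All 9 FAP markers looked for were in the table, with a summed level of 15943 to 34656 CPM in control and 9092 to 13386 CPM in senescent FAPs, most of it from Col1a1 and Col3a1. Of these 9 markers Col1a1 fell and 5 rose in limma at a Benjamini-Hochberg adjusted p under 0.05, namely Ly6a (log2 fold change 0.81), Cd34 (1.60), Dcn (1.79), Lum (1.98) and Pi16 (0.54). Leukocyte markers summed to 8.92 to 12.1 CPM in control and 21.7 to 26.6 CPM in senescent FAPs over the 5 of 8 in the table, with Ptprc, Adgre1 and Tyrobp not listed. Endothelial markers (4 of 5 in the table) summed to 18.0 to 38.4 and 22.2 to 29.2 CPM, muscle stem cell markers (2 of 6, with Pax7 and Myod1 not listed) to 14.3 to 19.3 and 23.4 to 30.2 CPM, and adipocyte markers (1 of 4) to 2.73 to 3.69 and 5.06 to 5.81 CPM. Mural cell markers (5 of 5), mostly Acta2, summed to 4507 to 6454 CPM in control and 1703 to 2674 CPM in senescent FAPs. By the same limma rule Acta2 (log2 fold change -1.49) and Cspg4 (-0.77) fell, while Rgs5 (1.54) and Notch3 (1.67) rose. Myh11 did not pass. Of the leukocyte markers Cd53 (2.42), Cd68 (1.43) and Itgam (1.11) rose, and Csf1r, the largest part of the control sum, did not pass. Pecam1 (0.89), Itga7 (0.83) and Fabp4 (0.71) also rose, and Kdr (-0.74) fell. Tek and Des did not pass, and Laptm5 and Cdh5 did not enter the test. The part of any such cells in the changes of the stress genes was not tested.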

How the data were processed

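RNA-seq of 3 control and 3 senescent FAP libraries was grouped from the sample labels, and the treatment times come from the study's methods. The authors prepared stranded mRNA libraries, sequenced them and deposited 1 signal value per gene and library, namely CPM of the effective library size (edgeR 3.10, R 3.6.0 and build mm10 per the submitters' processing notes). The aligner, counter and annotation are not given in the sources used here. The deposited signal came in steps of 1 read (within 0.05 of a whole number for 100% of values), and the reads so recovered were used in the count models. The plan assumed CPM, and the same test was kept. Of 16895 lines, 1 names no gene (0.0041% to 0.0070% of reads) and was left out.

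Genes reaching 0.5 CPM in 3 or more libraries entered the test of limma 3.58.1 (R 4.3.3, variance trend) on log2(CPM + 0.5), two-sided, with Benjamini-Hochberg adjustment. On this scale the change of genes with low values is understated. The script was tested on simulated data. Replicate numbers are those of the labels. Deviations from the group means of same-numbered libraries correlated across genes at 0.54, 0.31 and 0.21 for numbers 1, 2 and 3. Libraries of unlike numbers correlated at -0.36 to 0.15, the highest between control replicate 2 and senescent replicate 3. The numbers were taken to pair the samples only in the replicate block and in the differences within each number. The main fit and the permutation tests left this pairing out. Ratios were compared with exact permutation tests over libraries.

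The members, the lists and the tests were chosen with earlier results of these data known. The rule for genes named took all 10 members, the 3 of each list with the smallest p, and the 3 with the profile nearest to the member with the largest fall (no member rose). Other list genes and markers named were picked with their values in view. The alternatives were pseudocounts of 0.1 and 1, no filter or a filter of 2 CPM, median-of-ratios factors, library totals alone, a replicate block, edgeR 4.0.16 quasi-likelihood, DESeq2 1.42.0, and leaving out each library. For the lists these were added after the values were seen. Gene positions and lengths came from GENCODE M21 (GRCm38).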

Additional observations from a re-analysis of the deposited data

How the results depend on the processing

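Over the 15 alternatives, Atf4, Asns, Chac1, Hspa5, Hsp90b1, Xbp1 and Herpud1 stayed lower in senescent FAPs at an adjusted p under 0.05, and the number of members that fell was 7 to 8. Their log2 fold changes spanned -0.88 to -0.55 for Atf4, -1.67 to -1.24 for Asns, -3.06 to -2.06 for Chac1, -1.04 to -0.79 for Hspa5, -1.02 to -0.77 for Hsp90b1, -0.86 to -0.58 for Xbp1 and -1.36 to -0.86 for Herpud1. Trib3 lost its call with a filter of 2 CPM (-1.65, limma adjusted p = 0.0517), where fewer genes were tested, and with library totals alone (-1.45, adjusted p = 0.0683). Leaving out 1 library gave -2.38 to -1.06 for Trib3, and the cause of the lost calls was not tested. Leaving out 1 library gave -0.15 to 0.38 for Ddit3 and -0.042 to 0.25 for Dnajb9. Ddit3 turned negative without control replicate 2, and Dnajb9 without control replicate 2 (-0.042) or senescent replicate 3 (-0.0082).

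Leaving out 1 library gave 3 to 5 members past the stricter rule, and library totals alone gave 2. The same scaling gave 4992 genes higher and 1929 lower, because it shifts all genes upward in senescent libraries. Leaving out 1 library gave 2130 to 3405 higher, with 2130 without senescent replicate 2, and 2416 to 3875 lower. On the recovered reads edgeR called 3261 genes higher and 3307 lower, and DESeq2 3560 and 3440. The fit with the replicate block gave 3576 higher and 3947 lower, called 8 members lower, and changed no call among the members at an adjusted p under 0.05. By the stricter rule it added Trib3, for 5 members. Leaving out 1 library gave -0.36 to 0.17 for Slc7a11 and -0.28 to 0.019 for Ppp1r15a. Slc7a11 turned positive with library totals alone (0.14) and without control replicate 1 (0.04), control replicate 3 (0.14) or senescent replicate 1 (0.17). Ppp1r15a did so with library totals alone (0.11) and without control replicate 1 (0.019). Without control replicate 2, by contrast, Ppp1r15a was called lower (-0.28, limma adjusted p = 0.0256). Counts of reads per member were at least 147 in every library. Whether depth or the spread between 3 libraries limits these comparisons more was not tested.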
